A study of Homo sapiens with 4 samples.

Results

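The genes described here are GDF15, 8 further ligand genes of the transforming growth factor beta (TGF-beta) superfamily (GDF11, TGFB1, TGFB2, TGFB3, INHBA, INHBB, BMP4 and BMP7) and FST, whose product follistatin binds and neutralises activins. These 10 genes, chosen by name, were found by gene ID among the 61852 genes of the deposited tables. Poly(A) RNA was sequenced from H1299 cells, a human lung carcinoma line (non-small-cell) whose genotype is labelled p53-/-, so no library has p53 of its own. Wild-type p53 was expressed in 2 libraries (p53WT), and in the other 2 the cells carried CASM34, a p53 mutant that the series' title places among the synonymous mutations seen in cancer, which leave the protein sequence as it is. How p53 was introduced, at what level and for how long is not given in the labels, no treatment is stated, and H1299 cells without any p53 were not analysed here, so all differences are relative to p53WT. The comparison asks how the ligand genes of cells with CASM34 differ from those of cells with p53WT.

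Ligands of this superfamily are secreted as precursors, cut by furin-like proteases and released as dimers held by a cystine knot. They bring together type I and type II receptor kinases, which phosphorylate SMAD transcription factors: TGF-betas and activins act mainly through SMAD2 and SMAD3, and bone morphogenetic proteins (BMPs) through SMAD1, SMAD5 and SMAD9. GDF15 is a distant relative that signals through a different receptor, GFRAL with the kinase RET. It is a stress cytokine and a known direct transcriptional target of p53.

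The libraries held between 18086983 and 26906095 estimated counts, and values below are CPM, counts relative to library size scaled by the TMM method, unless TPM is named. The labels do not say whether the pair of libraries in a group are separate cultures, so a p-value reflects no more than how these 4 libraries vary, and that variation may be technical. Across the 15965 genes tested by edgeR's quasi-likelihood test, 312 passed an adjusted p under 0.05, which is 1.95% of them, and 257 of these were higher in CASM34 (1.61%). Of the markers of the line, VIM stood at 4239 to 4484 CPM. Of the simple epithelial keratin genes, KRT8 stood at 501 to 556 CPM and KRT19 at 0.155 to 0.493 CPM. The epithelial markers EPCAM and CDH1 and all 5 lung lineage markers (NKX2-1, SFTPB, SFTPC, NAPSA and SCGB1A1) stayed at or below 0.658 CPM, and PTPRC, CD3E and LUM, markers of leukocytes and fibroblasts, had 0 counts in all 4 libraries. Among other markers of leukocytes, fibroblasts and endothelium, CD68, a lysosomal protein gene, stood at 89.9 to 102 CPM (log2 fold change -0.0012) and DCN, PDGFRB, PECAM1, VWF and CDH5 at 0.861 CPM or less. Differences between the groups moved with the GC content of the transcripts: its median was 63.9% for genes that rose, 42.7% for genes that fell and 49.5% for all tested genes.

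The promoters of 3 ligand genes are shown for contrast: GDF15, the ligand gene that rose, TGFB1, the most abundant one, and TGFB2, the tested gene of the 10 whose fitted fold change lay below 0. Each run holds the 250 bases before the RefSeq transcription start (GRCh38.p14), 5′ to 3′ on the gene's strand. Capitals mark GC boxes (GGGCGG, or CCGCCC where the box lies on the other strand) and TATA boxes (TATAAA).
GDF15 (chr19:18385908-18386157, plus strand): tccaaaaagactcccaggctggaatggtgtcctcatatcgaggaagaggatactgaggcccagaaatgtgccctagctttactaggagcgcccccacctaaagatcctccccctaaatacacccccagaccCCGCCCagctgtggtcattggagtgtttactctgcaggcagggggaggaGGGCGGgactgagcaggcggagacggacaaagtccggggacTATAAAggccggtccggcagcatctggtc
TGFB1 (chr19:41353923-41354172, minus strand): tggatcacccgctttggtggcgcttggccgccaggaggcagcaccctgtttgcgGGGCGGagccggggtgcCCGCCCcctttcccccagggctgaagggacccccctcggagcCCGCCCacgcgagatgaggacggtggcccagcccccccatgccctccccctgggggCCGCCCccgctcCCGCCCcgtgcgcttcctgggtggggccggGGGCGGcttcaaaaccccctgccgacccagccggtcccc
TGFB2 (chr1:218345086-218345335, plus strand): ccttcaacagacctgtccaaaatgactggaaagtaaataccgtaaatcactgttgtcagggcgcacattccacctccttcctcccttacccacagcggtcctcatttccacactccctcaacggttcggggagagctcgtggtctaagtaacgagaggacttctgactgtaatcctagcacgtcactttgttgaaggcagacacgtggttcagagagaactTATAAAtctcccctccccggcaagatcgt

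The GDF15 window held 2 GC boxes, which began 119 and 70 bases before the start, and a TATA box that began 29 bases before it. The TGFB1 window held 6 GC boxes and no TATA box. The TGFB2 window held a TATA box, also 29 bases before the start, and no GC box. The GC content of the 3 windows was 58.4%, 76.8% and 50.4%, and the median over 34943 promoters was 58%. Of those promoters 42.5% held a GC box and 10.8% a TATA box on either strand. The p53 decamer, the 10-base unit of p53 response elements, was searched in the same windows on both strands. It was in 5.58% of all promoters and in none of these 3, which says only that these letters are not in these windows. Of 3 further motifs searched on both strands, the AP-1 site (TGANTCA) was in none of these 3 windows, the CRE half-site (TGACG) in that of TGFB2 alone and the EGR1 site (GCGGGGGCG) in that of TGFB1 alone, where it overlapped a GC box. They were in 6.59%, 21.2% and 4.71% of all promoters. Among the other promoters of the 10 genes the p53 decamer was found in 1 of the 2 TGFB3 windows. A promoter was listed for 9 of the 10 genes, all except BMP7.

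GDF15 rose in CASM34. GDF15 (ENSG00000130513.7; GRCh38 chromosome 19, 18374731 to 18389176, plus strand in GENCODE 29, a protein-coding gene whose listed span starts upstream of the RefSeq start used above) had 421 and 557 counts in p53WT and 753 and 584 counts in CASM34, all of them whole numbers to within 0.001. Its level was 19.4 and 21.6 CPM in p53WT and 28.2 and 32.0 CPM in CASM34. Both CASM34 libraries lay above both p53WT libraries, and the gap between the groups was wider than the gap within either. The means were 20.5 ± 1.54 and 30.1 ± 2.69 CPM (SD, n = 2 each), and counting error alone would give a coefficient of variation from 3.64% to 4.87% per library. The fold was 1.46 with a 95% interval from 1.28 to 1.67, which is 0.55 on the log2 scale (SE 0.09, edgeR adjusted p = 0.00976). Per transcript length the order was the same, with 25.9 and 28.2 TPM in p53WT and 36.7 and 41.9 TPM in CASM34. In these bulk samples more cells with the transcript and more transcript per cell cannot be told apart.

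The GDF15 call depended on the processing, while its direction did not. Without p53WT replicate 1 the log2 fold change was 0.47 (edgeR adjusted p = 0.0988), and with an offset that took out the trend of a library on GC content and length it was 0.42 (edgeR adjusted p = 0.0563). With an offset for effective length (edgeR adjusted p = 0.257) and in limma on log2(TPM + 1) (adjusted p = 0.467) it did not pass either. The log2 fold changes there were 0.53 and 0.52. Over 14 alternatives the log2 fold change lay between 0.42 and 0.64. It passed in 9 of the 13 that gave an adjusted p, 1 of them added after seeing the data: DESeq2 on all genes with a count called 0 of the 10 genes and gave GDF15 no adjusted p (unadjusted p = 9.28e-05), and it was then run on the genes of the edgeR test (adjusted p = 0.00340). GDF15 transcripts have a GC content of 60.2%. The 1909 tested genes within 2 percentage points of it had a median of 0.10 on the log2 scale, and 2.30% of them passed.

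**Figure D1:**
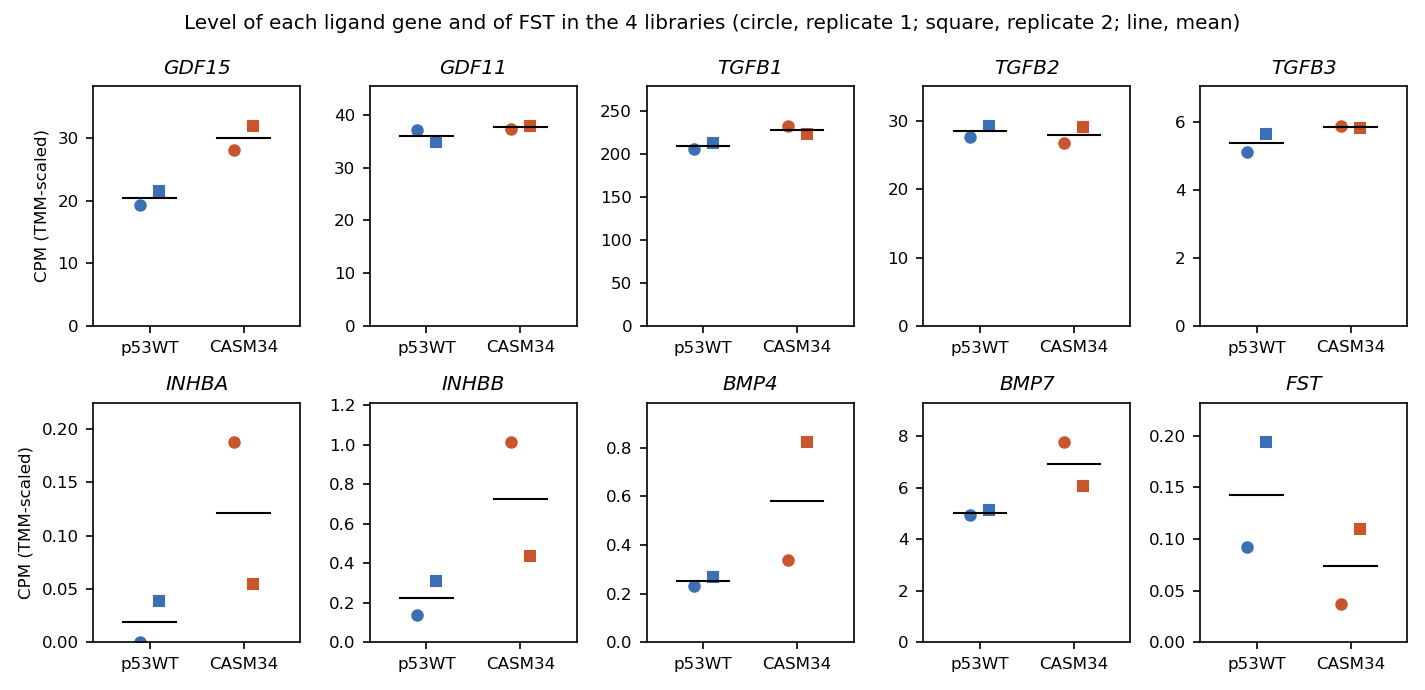
Scaled CPM (vertical axes, linear from 0, a separate range in each panel) of the 10 genes in the 2 p53WT libraries (blue) and the 2 CASM34 libraries (orange); black lines are group means. GDF15 lies at 19.4 and 21.6 CPM in p53WT and at 28.2 and 32.0 CPM in CASM34, while TGFB2 and FST overlap between the groups and INHBA, INHBB, BMP4 and FST stay near or below 1 CPM.

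None of the other 9 genes passed. Of the 10 genes 7 were high enough to test, 1 rose (background 1.61%) and 6 did not pass. Of the 7 fitted fold changes 6 were positive and that of TGFB2 was negative, and 49.8% of all tested genes had a positive one. The median over the 7 was 0.12, and over all tested genes it was -0.00055. INHBB entered the test through its level in CASM34, so these counts are a description only.

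The 3 TGF-beta isoforms changed little. TGFB1 encodes the most widely expressed isoform (ENSG00000105329.11, chromosome 19, 41301587 to 41353911, minus strand). It stood at 206 and 213 CPM in p53WT and at 233 and 223 CPM in CASM34. The groups did not overlap, as in 47.9% of all tested genes, but they were close: the log2 fold change was 0.12 with a 95% interval from 0.02 to 0.22 (SE 0.05, edgeR adjusted p = 0.198). At a GC content of 61.4%, TGFB1 lay beside the median of 0.13 of the 1732 genes within 2 points of it. With the GC and length offset the log2 fold change of TGFB1 was -0.06 (edgeR adjusted p = 0.619). Exons of HNRNPUL1 overlap TGFB1 on the opposite strand, and the strand setting of the counting is not given in the sources used here.

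TGFB2, whose product needs the co-receptor betaglycan for strong receptor binding (ENSG00000092969.12, chromosome 1, 218346235 to 218444619, plus strand), stood at 27.7 and 29.2 CPM in p53WT and at 26.7 and 29.0 CPM in CASM34. These ranges overlapped. The log2 fold change was -0.04, with an interval from -0.20 to 0.13 (edgeR adjusted p = 0.859), and its sign changed with the GC and length offset, to 0.03. Its counts were fractional in all 4 libraries, so reads shared with another gene model, such as TGFB2-OT1 on the same strand, enter its level. TGFB3 (ENSG00000119699.8, chromosome 14, 75958099 to 75982991, minus strand) stood at 5.11 and 5.65 CPM in p53WT and at 5.88 and 5.81 CPM in CASM34, with TGFB3-AS1 exons on the opposite strand. Its log2 fold change was 0.12 with a wider interval, from -0.22 to 0.45 (edgeR adjusted p = 0.751), at 106 to 157 counts per library.

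GDF11, a ligand close to myostatin that patterns the embryonic axis (ENSG00000135414.10, chromosome 12, 55743280 to 55757278, plus strand), gave different answers per count and per length. It stood at 37.1 and 34.9 CPM in p53WT and at 37.3 and 37.9 CPM in CASM34, a log2 fold change of 0.06 with an interval from -0.08 to 0.20 (edgeR adjusted p = 0.669). In TPM it stood at 14.0 and 12.1 in p53WT and at 16.4 and 15.8 in CASM34. The effective length that RSEM assigned to it, which averages its isoforms, was 3169 and 3394 bases in p53WT and 2680 and 2835 bases in CASM34, so RSEM gave more of its reads to shorter isoforms in both CASM34 libraries. With that length as an offset its log2 fold change was 0.30, and it did not pass there (edgeR adjusted p = 0.344). Exons of SARNP lie on the opposite strand of GDF11 and its counts were fractional in all 4 libraries, so the division of its reads is uncertain. The effective length of GDF15, by contrast, stayed between 895 and 906 bases, and TGFB1 stayed between 2416 and 2436 bases.

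The BMPs were low. BMP7, a ligand of kidney and eye development that also acts in epithelial cells (ENSG00000101144.13, chromosome 20, 57168748 to 57266629, minus strand), had 107 and 133 counts in p53WT and 207 and 111 counts in CASM34. Its level was 4.93 and 5.15 CPM in p53WT and 7.75 and 6.08 CPM in CASM34, so the CASM34 libraries were higher and also further apart. The log2 fold change was 0.47 with an interval from 0.12 to 0.82 (SE 0.16, edgeR adjusted p = 0.160). Without CASM34 replicate 2 it passed, at 0.62 (edgeR adjusted p = 0.0240), and without CASM34 replicate 1 it lay at 0.27 (edgeR adjusted p = 0.638). The GC and length offset put it at 0.33 (adjusted p = 0.420). BMP4 (ENSG00000125378.16, chromosome 14, 53949736 to 53958761, minus strand), a ligand of mesoderm and lung bud development, had 5 and 7 counts in p53WT and 9 and 15 counts in CASM34, too few to test.

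The activin genes and their antagonist were near the limit of detection. INHBA and INHBB encode the beta subunits that pair into activins A and B or, with INHA, into inhibins. INHBA (ENSG00000122641.11, chromosome 7, 41667168 to 41705834, minus strand) had 0 and 1 counts in p53WT and 5 and 1 counts in CASM34. INHBB (ENSG00000163083.6, chromosome 2, 120346143 to 120351808, plus strand) had 3 and 8 counts in p53WT and 27 and 8 counts in CASM34. In CPM the INHBB groups did not overlap, at 0.138 and 0.310 against 1.01 and 0.438, but CASM34 replicate 1 held most of its counts, and the log2 fold change of 1.69 had an interval from 0.34 to 3.04 (SE 0.62, edgeR adjusted p = 0.185). FST (ENSG00000134363.12, chromosome 5, 53480409 to 53487134, plus strand) had 2 and 5 counts in p53WT and 1 and 2 counts in CASM34. INHA itself had at most 1 count per library. A floor of 3 counts is 0.111 to 0.166 CPM in these libraries, so for INHBA and FST no difference was detectable at this depth.

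**Figure D2:**
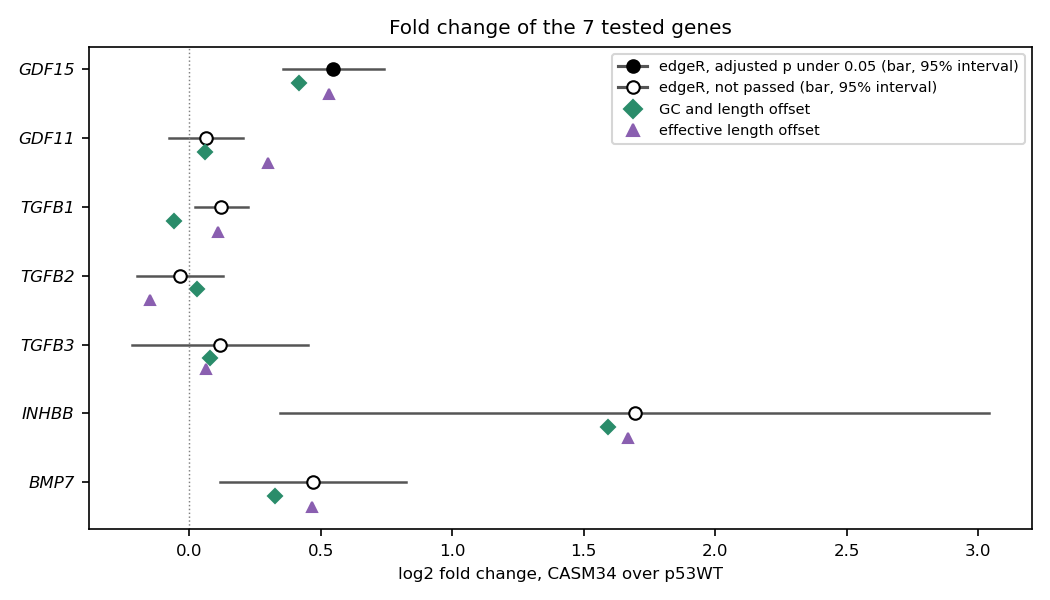
Log2 fold change of CASM34 over p53WT (horizontal axis) for the 7 tested genes; circles are edgeR estimates from 2 libraries per group with 95% intervals, filled where the adjusted p is under 0.05, and diamonds and triangles are the estimates with the GC and length offset and with the effective length offset. GDF15 is the filled circle, at 0.55, GDF11 moves from 0.06 to 0.30 with the effective length offset, and TGFB1 moves from 0.12 to -0.06 with the GC and length offset.

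The order of the levels per length was TGFB1, GDF15, GDF11, TGFB2, BMP7, TGFB3, BMP4, INHBB, FST and INHBA. TGFB1 ranged from 102 to 113 TPM over the 4 libraries, GDF15 from 25.9 to 41.9, GDF11 from 12.1 to 16.4, TGFB2 from 6.90 to 8.21, BMP7 from 2.97 to 4.21 and TGFB3 from 2.13 to 2.41. The ranges of the first 6 genes over all 4 libraries thus did not overlap, each with the next. From BMP4 down, each gene's range overlapped that of the next, and none exceeded 0.82 TPM. The 10 genes summed to 156 and 158 TPM in p53WT and to 180 and 182 TPM in CASM34. GDF15 made up 16.7% and 17.9% of that sum in p53WT and 20.4% and 23.0% in CASM34, and TGFB1 was the largest single part of it in each library.

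Other ligands of the superfamily were mostly silent. Of 24 further ligand genes, 8 were tested and none passed. All 8 fitted log2 fold changes were positive, against 49.8% of all tested genes, and their median was 0.39. The median of all tested genes rose with GC content, from -0.04 in the band from 45% to 50% GC to 0.39 in the band from 70% GC. The transcripts of the 8 ligand genes had GC contents from 45.6% to 72.2%, most of them below 70%. These 8 genes were not set against genes of like GC content, so their shared direction is a description only. The most abundant were BMP6, a ligand known for its control of iron through hepcidin, at 38.0 and 38.9 CPM in p53WT and 42.7 and 43.9 CPM in CASM34 (log2 fold change 0.17, edgeR adjusted p = 0.172), and BMP8B, at 8.56 and 8.01 CPM in p53WT and 12.8 and 10.2 CPM in CASM34 (0.49, edgeR adjusted p = 0.0827). Both had fractional counts in all 4 libraries. BMP8B passed without CASM34 replicate 2, at 0.63 (edgeR adjusted p = 0.000859), when genes of low count were kept (adjusted p = 0.0131) and with a replicate block (adjusted p = 0.00977). Without CASM34 replicate 1 it lay at 0.31 (edgeR adjusted p = 0.391). Of the 24 genes 11 never exceeded 3 counts in a library, and GDF2, GDF3, MSTN, BMP10 and BMP15 had 0 counts in all 4.

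Most type I and type II receptor genes of the pathway were expressed, and none of those tested passed. The untested ACVRL1 and AMHR2 had at most 2 and 1 counts in a library. Of 7 type I receptor genes 6 were tested, with a median of -0.02 on the log2 scale, and of 5 type II receptor genes 4 were tested, with a median of 0.07. TGFBR1, the type I receptor kinase for TGF-beta, stood at 37.3 and 37.0 CPM in p53WT and 35.1 and 38.5 CPM in CASM34, and its partner TGFBR2 at 50.3 and 49.8 CPM in p53WT and 48.7 and 55.3 CPM in CASM34. The intervals of their log2 fold changes ran from -0.16 to 0.13 and from -0.09 to 0.19 (edgeR adjusted p = 0.919 and 0.762). The activin receptor ACVR1B and the BMP receptor BMPR2 lay at -0.05 and 0.03 (edgeR adjusted p = 0.786 and 0.803). Among 9 genes for co-receptors and for the GDF15 receptor, GFRAL and RET included, 5 were tested. The most abundant of them, the BMP co-receptor RGMB and the endothelial TGF-beta co-receptor ENG, both lay at 0.06 (edgeR adjusted p = 0.722 and 0.697). GFRAL, the receptor of GDF15, had 0 counts in all 4 libraries, which allows a level up to the floor given above, and RET had 37 and 14 counts in p53WT and 50 and 24 counts in CASM34.

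All 12 SMAD genes and SMAD regulators were tested and none passed, with a median of -0.02. SMAD3 was the most abundant of them, at 199 and 183 CPM in p53WT and 192 and 194 CPM in CASM34 (log2 fold change 0.01, interval from -0.09 to 0.12), and the SMAD ubiquitin ligase SMURF1 stood at 139 and 133 CPM in p53WT and 139 and 129 CPM in CASM34 (-0.02). Of 17 TGF-beta and activin target genes, all tested, none passed, and their median was 0.12. CCN2, a matricellular growth factor gene, lay at 0.12 (edgeR adjusted p = 0.335) and passed without CASM34 replicate 2, at 0.21 (adjusted p = 0.0180). It lay at 0.03 without CASM34 replicate 1 and at 0.05 without p53WT replicate 1 (edgeR adjusted p = 0.906 and 0.820). SKIL, SMAD7, SMAD6, LTBP2 and BAMBI stand in more than 1 list.

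Outside the 10 genes, 4 of the 90 tested genes of the pathway rose, each from a different list, and none fell, against a background of 1.95% for either direction. The median over the 90 was 0.09. ID3, an inhibitor of basic helix-loop-helix factors and a direct BMP target, was the 1 of 11 BMP target genes that rose: it stood at 260 and 280 CPM in p53WT and 314 and 319 CPM in CASM34, a difference of 0.23 on the log2 scale (SE 0.05, edgeR adjusted p = 0.0336). Of 8 tested antagonist genes, NOG rose, from 20.3 and 22.1 CPM to 27.3 and 26.6 CPM (0.34, edgeR adjusted p = 0.0495). Its product noggin binds BMPs outside the cell. NOG lay at the threshold, and it did not pass with median-of-ratios scaling (adjusted p = 0.0513), in DESeq2 on the genes of the edgeR test (adjusted p = 0.157), or without p53WT replicate 1, p53WT replicate 2 or CASM34 replicate 1 (adjusted p = 0.319, 0.102 and 0.0591).

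Of 17 tested genes for processing and latency of the ligands, LTBP3 rose. It encodes a latent TGF-beta binding protein, which holds the inactive cytokine in the matrix. It stood at 97.9 and 88.7 CPM in p53WT and 119 and 114 CPM in CASM34, a difference of 0.32 on the log2 scale (SE 0.06, edgeR adjusted p = 0.0119). Without p53WT replicate 2 it lay at 0.25 (adjusted p = 0.0792). Of 8 factors known to act on the GDF15 gene, CEBPB rose, from 53.7 and 53.8 CPM to 67.1 and 66.3 CPM (0.31, SE 0.05, edgeR adjusted p = 0.0109). Of the 8, 4 lay above 0 and 4 below, and their median was 0.04. Leaving out p53WT replicate 1 ended the call of CEBPB (adjusted p = 0.0690) and of ID3 (adjusted p = 0.265).

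**Figure D3:**
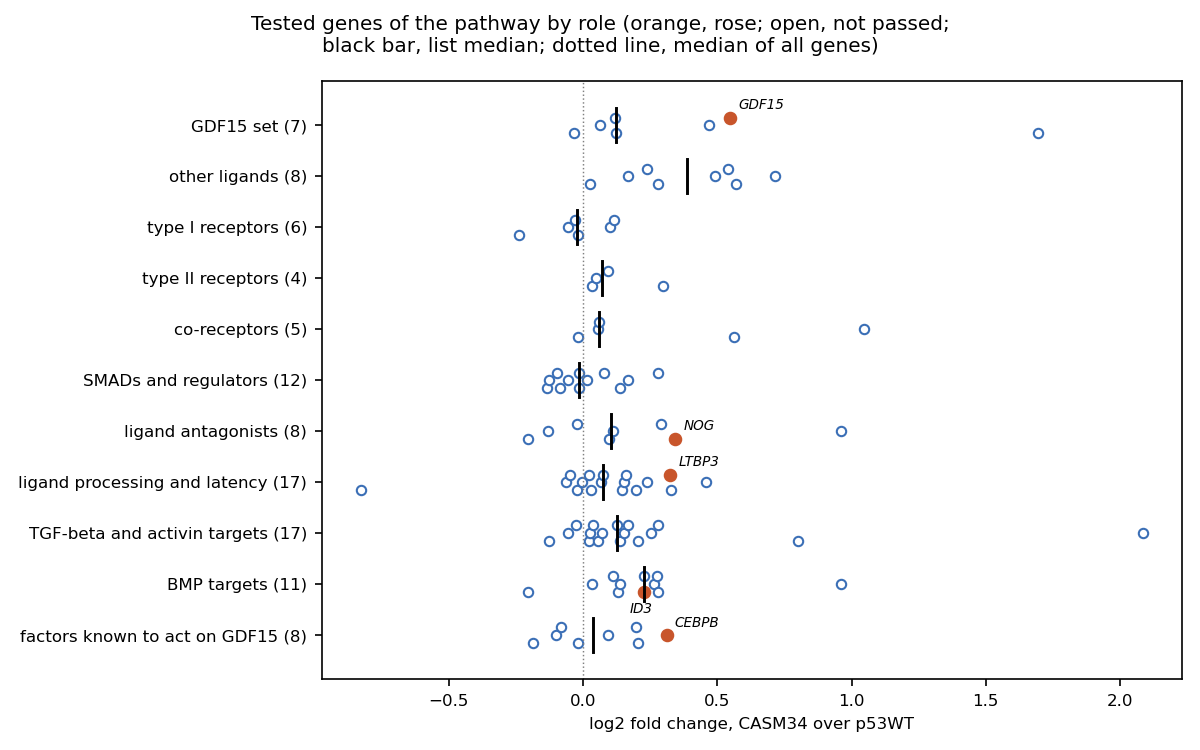
Log2 fold change of CASM34 over p53WT (horizontal axis) for each tested gene, by role, with the number tested in brackets; orange points rose by edgeR at an adjusted p under 0.05, open points did not pass, black bars are list medians and the dotted line is the median of all tested genes. GDF15 at 0.55, NOG at 0.34, LTBP3 at 0.32, CEBPB at 0.31 and ID3 at 0.23 are the orange points. The list medians of the receptors and of the SMADs lie close to 0, with single genes further out.

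None of these 4 genes passed with the GC and length offset alone, while ID3 passed when a replicate block was fitted with it (0.17, edgeR adjusted p = 0.0126). LTBP3 and CEBPB, whose transcripts have GC contents of 64.7% and 66.2%, were at 0.07 and 0.04 under the offset (edgeR adjusted p = 0.561 and 0.791). NOG and ID3, at 59.5% and 57.1%, lay at 0.21 and 0.16 (edgeR adjusted p = 0.278 and 0.0939), and GDF15 at 0.42. The same offset left 60 of the 15965 genes passing (0.376%).

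The 5 genes with the level pattern nearest to that of GDF15 over the 4 libraries were DLGAP3, GGN, METRN, PTPRU and RAB43, among 11341 genes with a mean of at least 5 CPM. Likeness was the Euclidean distance between log2 CPM values centred on each gene's mean, and it ranged from 0.065 for DLGAP3 to 0.090 for RAB43. METRN, which encodes the secreted neurotrophic protein meteorin, was the most abundant of them, with 43.9 and 47.8 CPM in p53WT and 64.8 and 68.8 CPM in CASM34. RAB43 had fractional counts in all 4 libraries. The transcripts of these 5 genes had GC contents from 61.5% to 68.3%, all above that of GDF15. With 4 libraries such a likeness is easily met, and it is given as a description.

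**Figure D4:**
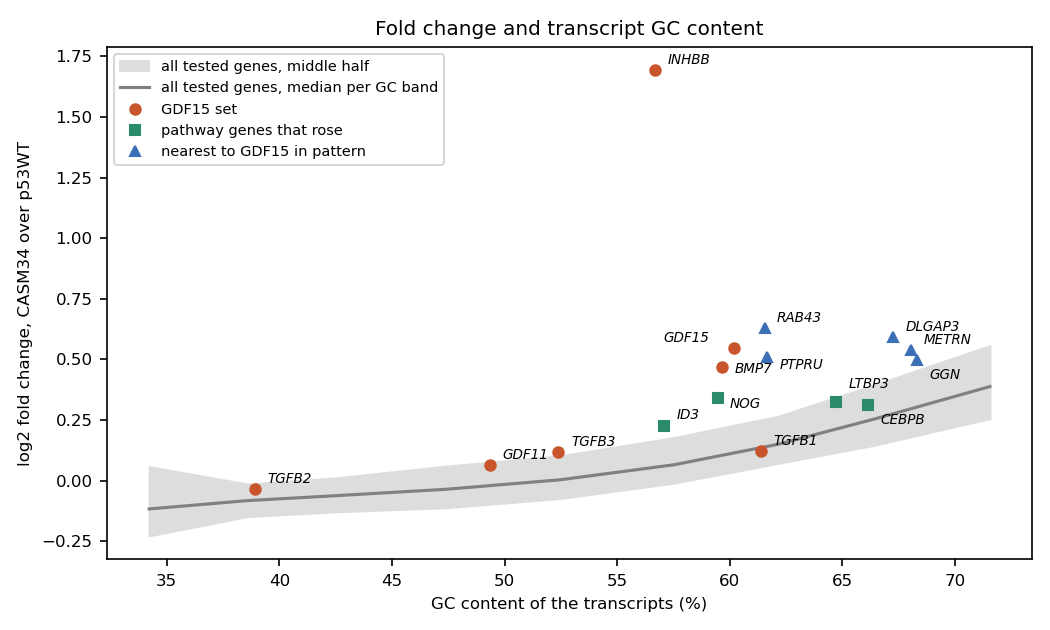
Log2 fold change of CASM34 over p53WT (vertical axis) against the GC content of a gene's transcripts in percent (horizontal axis); the grey line and band are the median and interquartile range of all tested genes by GC band, and coloured points are the tested genes of the set, the 4 pathway genes that rose and the 5 genes nearest to GDF15. The grey median rises from -0.12 in the lowest band to 0.39 in the highest, TGFB1 lies on it, and GDF15 at 60.2% GC lies above the grey band.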

How the data were processed

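The submitters' processing notes name Trim Galore, STAR and RSEM and the build GRCh38. Tool versions, the annotation and the strand setting were not given in the sources used here. Expected counts as deposited are, per the file headers, the authors' RSEM estimates, which divide shared reads; they were rounded to whole numbers. Deposited TPM values are, per the file headers, RSEM's own, scaled by effective length to a fixed total, and effective lengths stand beside them.

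Gene IDs were named for 61803 of 61852 genes. Coordinates come from GENCODE 29, and GC content was taken over all GENCODE 29 transcripts of a gene. Promoter sequences are RefSeq's (GRCh38.p14). Groups were tested in R 4.3.3 by edgeR 4.0.16 (quasi-likelihood F test, glmQLFTest) on group alone, with TMM factors of 0.993 to 1.01 and filterByExpr at a minimum count of 10. It took 15965 genes, and 45887 were too low. P-values were Benjamini-Hochberg adjusted over all tested genes. Standard errors were taken as |log2 fold change| over the square root of F, and 95% intervals use the fit's degrees of freedom. A count of 3 per library served as the floor, for counting error alone. Replicates differed beyond counting noise (chi-square per degree of freedom 3.86 in p53WT and 3.92 in CASM34). All 4 were treated as separate libraries, and this difference does not show that they are separate cultures.

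Alternatives were median-of-ratios scaling, no filter on low counts, a minimum mean of 1 CPM, DESeq2 1.42.0, limma 3.58.1 on log2(TPM + 1), an effective length offset, a GC and length offset (natural splines with 5 degrees of freedom each), a replicate block with and without that offset, and leaving out each library. DESeq2 on all genes with a count was run before the form on the tested genes, which was chosen after seeing the data, and both are given. In the promoter windows 6 motifs were searched. The members, the lists and these alternatives were chosen with earlier results of these data known. The rule named all 10 members, up to 6 passing genes of each list by adjusted p or else its 2 most abundant, and the 5 genes nearest to GDF15. One gene that the rule named and 1 marker are not reported here. GDF2, GDF3, MSTN, BMP10, BMP15, INHA, ACVRL1, AMHR2, GFRAL and RET were named beside it for their low counts. The edgeR script was tested on simulated data.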

Additional observations from a re-analysis of the deposited data

How the results depend on the processing

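Of all tested genes 312 passed in the main test (257 higher and 55 lower in CASM34), 777 with no filter on low counts, 60 with the GC and length offset (31 higher and 29 lower), 3 with the effective length offset and 0 by limma on TPM values (1531 with an unadjusted p under 0.05). Leaving out each library gave 109 to 919. Of the 10 genes 1 passed in the main test, against 0 with the GC and length offset, 0 with the effective length offset and 0 by limma (2, 4 and 3 with an unadjusted p under 0.05). Leaving out each library gave 0 to 2. Of the pathway genes 4 passed in the main test, 10 with no filter on low counts, 0 with the GC and length offset, 0 with the effective length offset and 0 by limma (13, 21 and 15 with an unadjusted p under 0.05). Leaving out each library gave 1 to 13. GDF15 missed the threshold at 0.42 with the GC and length offset, 0.53 with the effective length offset and 0.52 by limma, and leaving out each library gave 0.46 to 0.64.

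The labels do not say whether same-numbered libraries are paired. Their deviations correlated at 0.034 across genes, which with 2 libraries per group cannot settle it. With a replicate block 1159 genes, 13 pathway genes and 1 of the 10 genes, GDF15 at 0.56, passed. With the block and the GC and length offset 468 genes (173 higher and 295 lower) and GDF15 at 0.43 passed. Of the pathway genes 2 passed there, ID3, which was higher in CASM34, and 1 that was lower.

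Signs under the alternatives were followed only for the tested members and for the pathway genes that the rule named and that are reported here. Among these, the signs that changed belonged to genes that did not pass in the main test. With the GC and length offset these were TGFB1 (-0.057), TGFB2 (0.029), TGFBR1 (0.039), ENG (-0.133) and SMAD3 (-0.048), and with the replicate block added TGFB1 (-0.055), TGFB2 (0.035), TGFBR1 (0.042), ENG (-0.130) and SMAD3 (-0.048). SMURF1 lay at 0.0022 with the effective length offset and at 0.0020 by limma. Leaving out each library gave ranges across 0 for TGFB2 (-0.094 to 0.028), TGFBR1 (-0.082 to 0.051), ACVR1B (-0.185 to 0.047), BMPR2 (-0.023 to 0.096), TGFBR2 (-0.041 to 0.143), RGMB (-0.027 to 0.137), SMAD3 (-0.044 to 0.067) and SMURF1 (-0.073 to 0.031). The causes were not tested. DESeq2 was first run on all genes with a count and its default filtering, which called 207 genes (133 higher and 74 lower), 4 pathway genes and 0 of the 10 genes (2 with an unadjusted p under 0.05). It left 9 of the 10 genes, GDF15 at 0.55 included, without an adjusted p. After this was seen it was run on the genes of the main test at a threshold of 0.05, an alternative chosen after seeing the data, which called 213 genes, GDF15 among them. At this depth INHBA, BMP4 and FST could not be compared.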
